A study of Sus scrofa with 12 samples.

Results

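Spliced intergenic transcripts are RNAs that were assembled with at least 1 intron and that lie away from every gene of a chosen annotation, here RefSeq. They were taken from the transcript assemblies of 12 muscle libraries as the transcripts with 2 or more exons, on assembled chromosomes, whose span lies over 2000 bases from every RefSeq gene of the pig genome Sscrofa11.1 on either strand. Transcripts of different libraries were matched when their intron chain, the ordered list of their introns, was identical. By this rule 1356 of 254307 spliced transcripts (0.533%) were intergenic, and they formed 770 of 103656 distinct intron chains (0.743%).

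The libraries came from the longissimus dorsi, the long loin muscle, of 12 castrated male Iberian pigs that were fattened outdoors on acorns and grass, with 1 RNA-seq library per pig. The 6 pigs of the H group had a high estimated breeding value for intramuscular fat (2.78 to 3.48) and a measured intramuscular fat content of 10.62 to 13.8%. The 6 pigs of the L group had a low breeding value (-1.46 to -1.31) and a fat content of 1.7 to 2.28%. These are the values of the labels, and the study's text gives a higher mean fat content for the L group than they do. All 12 pigs were of one breed, sex and feeding system, with siblings excluded by the study's methods, so that H and L differ in breeding value and fat content together. Slaughter batches of single pigs are not given in the sources used here.

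Most long non-coding RNA genes are spliced, polyadenylated and transcribed by RNA polymerase II like messenger RNA, but have short open reading frames, few exons and low levels. In muscle such RNAs are known as regulators of myoblast differentiation. A spliced transcript outside the annotation can be a non-coding RNA, a protein-coding gene that the annotation lacks, or an untranslated extension of a neighbouring gene, and its intron gives it splice sites that can be read on the reference.

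The muscle origin of the libraries was checked on marker genes, each measured by the transcripts that use an annotated intron of the gene. Of 12 muscle genes 10 were listed, with a summed level of 35624 to 57276 FPKM in H and 37609 to 48851 in L (FPKM is fragments per kilobase of transcript relative to all mapped fragments, scaled here to a common level across libraries). ACTA1, the skeletal actin gene, was listed at 0 in all 12 libraries, so an absent chain cannot be read as absent RNA. Summed levels of 6 other cell types were low beside muscle, and in all 6 the median was higher in H while the ranges of H and L overlapped. The 8 adipocyte genes, mostly FABP4 and PLIN4, summed to 88.8 to 193 FPKM in H (median 114) and 47.4 to 119 in L (median 80.9). The medians in H and L were 11.4 and 3.74 for ADIPOQ and 5.94 and 1.23 for PLIN1, and H2 was the lowest of the 12 libraries for both genes. The 3 listed of 6 erythroid genes, nearly all HBB, summed to 86.9 to 296 in H (median 229) and 71.9 to 158 in L (median 88.8), and HBB was higher in 5 of 6 H libraries than in any L library, with SLC4A1 listed at 0. The medians in H and L were 82.3 and 70.3 for endothelial, 234 and 217 for fibroblast, 19.6 and 12.3 for macrophage and 17.6 and 13.8 for Schwann cell genes, with CLDN5 and MARCO listed at 0. The part of these cell types in the results on spliced intergenic transcripts was not tested, and in bulk tissue fewer cells of a type and less RNA per cell cannot be told apart.

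The sequences of the best recurring members show what was assembled. The most abundant one has 5 exons on the minus strand of chromosome 2 (chr2:1381836-1384439), and its 4 introns are short enough to be shown whole. Each is printed from 5′ to 3′ on the strand of the transcript, with the first 2 and last 2 bases, GT and AG, in capitals.
intron 1: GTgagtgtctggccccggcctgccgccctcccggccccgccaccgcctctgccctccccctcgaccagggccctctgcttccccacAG
intron 2: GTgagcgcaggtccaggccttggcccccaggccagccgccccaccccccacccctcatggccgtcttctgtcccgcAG
intron 3: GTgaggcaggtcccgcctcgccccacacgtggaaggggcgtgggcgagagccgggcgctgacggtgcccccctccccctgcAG
intron 4: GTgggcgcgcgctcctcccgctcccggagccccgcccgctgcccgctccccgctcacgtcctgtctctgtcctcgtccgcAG
These introns lie at chr2:1383008-1383095, chr2:1382804-1382881, chr2:1382603-1382685 and chr2:1382393-1382474, and are 88, 78, 83 and 82 bases long.

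The 3 chains of 2 exons that were assembled in all 12 libraries have a single intron of their own. For each, 20 exon bases and the first 10 intron bases stand for the donor, and the last 20 intron bases with 10 exon bases for the acceptor, again with the intron's first or last 2 bases in capitals.
chromosome 13 donor: cagcgcggggcccgggcgagGTgagcgggg
chromosome 13 acceptor: ctttgtctgtgttttcaaAGagcgtgactg
chromosome 15 donor: cactttcgggaagacaaacgGTgagttaat
chromosome 15 acceptor: gtgcacttttcgctcgacAGcggctcttcc
chromosome 5 donor: cctgttatacaaaggcaacaGTaagtcctc
chromosome 5 acceptor: gatatttttctctttttcAGcagtgagagc
Their positions are chr13:207676545-207676574 and chr13:207673005-207673034 on the minus strand, chr15:81978615-81978644 and chr15:81978782-81978811 on the plus strand, and chr5:65161034-65161063 and chr5:65171399-65171428 on the plus strand.

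The fifth chain found in all 12 libraries lies on the minus strand of chromosome 1 and exists with and without 1 exon of 64 bases. That exon is shown in capitals between 20 intron bases on each side (chr1:54632670-54632773, minus strand).
alternative exon: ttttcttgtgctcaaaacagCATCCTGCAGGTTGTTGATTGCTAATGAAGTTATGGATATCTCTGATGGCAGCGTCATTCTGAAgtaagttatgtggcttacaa

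Members that end at a polyadenylation signal are shown by the last 50 bases of their longest transcript, with AATAAA, the signal for cleavage and polyadenylation, in capitals. They are the chromosome 2 chain (chr2:1381836-1381885), the chromosome 13 chain (chr13:207670858-207670907) and a chain between METTL21A and CCNYL1 (chr15:110849033-110849082), all on the minus strand.
chromosome 2 end: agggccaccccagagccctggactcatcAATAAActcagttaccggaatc
chromosome 13 end: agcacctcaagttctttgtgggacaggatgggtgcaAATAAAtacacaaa
chromosome 15 end: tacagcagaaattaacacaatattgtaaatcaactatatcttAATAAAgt
AATAAA or ATTAAA, searched on the transcript strand only, stood in the last 50 bases of 118 of the 770 member chains (15.3%) and of 23038 of 102886 other chains (22.4%). Among the 42 member chains found in 6 or more libraries, which lie in 36 loci, the share was 13 (31.0%). The share among other chains that recur as often was not computed, so the 31.0% has no like background here.

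Spliced intergenic transcripts were few and mostly short. A library held 92 (L3) to 137 (H4) of them, among 19958 to 22661 spliced transcripts. Of the 770 chains, 423 (54.9%) had 2 exons, 133 (17.3%) had 3, 166 (21.6%) had 4 to 9 and 48 (6.23%) had 10 or more. Among other chains 8.76% had 2 exons and 42.4% had 10 or more. The spliced length of the member chains ranged from 204 to 18580 bases with a median of 1552, against a median of 2520 in the others.

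Within every one of the 12 libraries the members were shorter, had fewer exons and were less abundant than the other spliced transcripts. Averaged over libraries, the median length was 1474 against 2504 bases (difference -1029 ± 158, SD, n = 12), the median exon count 2 against 7.92, and the median level 0.46 against 1.49 FPKM. The median coverage, the number of reads over a base, was 4.23 against 14.3, and the median GC content of the exons 47.9 against 51.6%. Repeats, as soft-masked in the reference, filled a median of 17.1% of the exons of members and 8.81% of the others. A member was found in a median of 1.25 of the 11 other libraries and another spliced transcript in 3.92. Each of these 7 differences gave p = 0.000488, also after Benjamini-Hochberg adjustment, in an exact two-sided test of sign flips over the libraries, the smallest p that 12 libraries allow. The libraries share transcripts and a reference, so p of this test, here and below, measures only how steady a difference is over libraries.

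The contrast was smaller against unannotated transcripts alone. Against other spliced transcripts that share no annotated intron, members had the same median exon count of 2 and a like recurrence (1.25 against 1.33, exact p = 1). They kept a lower level (0.46 against 0.581 FPKM), a lower GC content (47.9 against 50.2%) and a higher repeat share (17.1 against 14.3%), each in 12 of 12 libraries with exact p = 0.000488, and had a length difference of -121 bases, lower in 9 of 12 (exact p = 0.0171). Against transcripts with the intron chain of an annotated long non-coding RNA, members were longer by 82.8 bases (exact p = 0.16) but had 1 exon fewer and were at 0.46 against 1.28 FPKM, both of these in 12 of 12 libraries.

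Most splice sites of the members had standard ends, in a somewhat lower share than in other transcripts. Of 951 distinct member introns, 874 (91.9%) began with GT and ended with AG on the transcript strand, 33 (3.47%) had GC and AG, and 6 (0.631%) had AT and AC, which makes 96.0% with standard ends. Among the other introns the shares were 96.8, 1.33 and 0.13%, which makes 98.3%. The aligner looks for introns with these ends, so the shares are not independent of it. The median intron was 1604 bases long against 1552, and 2 member introns were under 50 bases. The longest open reading frame had a median of 80 residues, close to the 84 of 458 annotated long non-coding chains and far from the 444 of 16675 other annotated chains. A frame of 100 or more residues was found in 275 members (35.7%), against 36.7% of the annotated long non-coding and 94.4% of the other annotated chains, and 55 members had one of 300 or more.

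Members lay at all distances from genes beyond the 2000 bases of the rule, with a median of 10985 bases and a farthest of 477830. The rule's limit split no visible group: 20 chains lay within the 100 bases beyond it, with a median of 0.422 FPKM, and 14 chains within the 100 bases below the limit had 0.454. The nearest gene was protein-coding for 559 chains (72.6%) and a long non-coding RNA gene for 166 (21.6%). Relative to it, 263 chains (34.2%) ran on the same strand downstream of the gene, 205 (26.6%) on the same strand upstream, 180 (23.4%) head to head on the opposite strand and 122 (15.8%) tail to tail. Counted by locus (spliced transcripts of one strand that share exon bases), the same 4 shares were 38.3, 24.7, 23.1 and 13.9% of 324. The densest chromosome was 12, with 17 loci on 61.6 megabases (0.276 per megabase), and the sparsest were Y, X and 18 (0.0689, 0.0715 and 0.0715).

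Recurrence separated a small stable set from a long tail. The plot of recurrence shows 549 chains (71.3%) in 1 library, 93 in 2, 42 (5.45%) in 6 or more and 5 in all 12, against 65.2% of other chains in 1 library and 12.3% in 6 or more. The median level was mostly higher in more recurrent chains, from 0.342 FPKM for chains in 1 library to 0.447 in 3, 0.649 in 6 and 4.33 in 12, though not in strict order (0.436 in 4, 11.4 over the 2 chains in 9, 1.42 in 10 and 1.37 in 11). Since an intron chain differs when 1 splice site or 1 missing exon differs, a chain in 1 library is not necessarily a transcript of 1 pig. Of the 549, 444 (80.9%) lay in a locus with spliced transcripts in at least 2 libraries and 305 (55.6%) had an intron that another library also held, while 44 had nothing on their exons in any other library. By intron, 167 of the 951 member introns were found in all 12 libraries and 388 in 1.

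**Figure D1:**
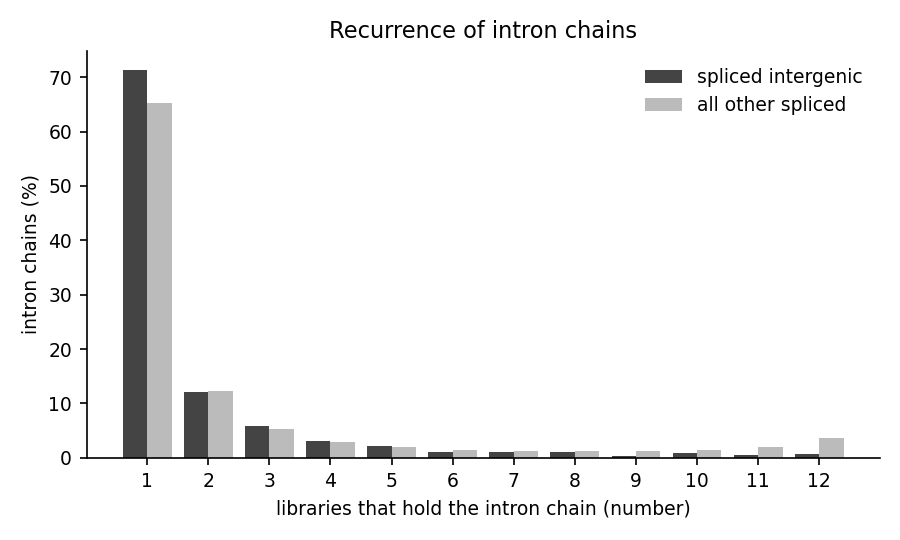
Percent of intron chains (vertical axis) by the number of the 12 libraries that hold them (horizontal axis), for the 770 spliced intergenic chains (dark bars) and the 102886 other spliced chains (light bars). Of the intergenic chains 71.3% were in 1 library and 0.649% in all 12, against 65.2 and 3.65% of the others.

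A few loci held many of the chains. Of the 324 loci, 197 (60.8%) had 1 member chain, and 203 held no chain that was not a member chain. The richest was a minus-strand locus on chromosome 12 between NPTX1, a secreted pentraxin of neurons, and SLC26A11, an anion transporter (chr12:2092134-2211998). It gave 41 chains, 35 of them in 1 library each, with up to 68 exons, 17002 spliced bases and a frame of 1753 residues, and it held all 15 member chains of 30 or more exons. It was present in all 12 libraries with 1 to 8 transcripts each, and its summed level was 4.01, 6.34, 1.35, 2.65, 2.52 and 2.49 FPKM in H1 to H6 and 1.96, 3.77, 2.96, 1.22, 3.55 and 2.01 in L1 to L6. H1 and H2 lay above every L value and the other 4 H values within the L range, so that the groups overlapped (log2 fold change 0.22 ± 0.30, SE, limma adjusted p = 0.891).

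A second minus-strand locus in the same interval (chr12:2066888-2089747) gave 14 chains of up to 11 exons and 2.14 to 9.16 FPKM, again in all 12 libraries. On chromosome 1, a plus-strand locus of up to 183242 bases that lies head to head with AKIRIN2, a nuclear factor of proteasome import, gave 22 chains of at most 5 exons at 0.521 to 4.47 FPKM. On chromosome 2, a minus-strand locus between LOC106509500 and NR2F1, a nuclear receptor gene, gave 21 chains at 0.418 to 1.46 FPKM. In all of these, most chains were in 1 library (10 of 14, 15 of 22 and 18 of 21) although the locus was in all 12.

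The chain found in all 12 libraries at the highest level was the 5-exon chain of chromosome 2 whose introns are shown above. It lies 11667 bases from LOC110259183 and 39691 bases from LOC110259218, both annotated as protein-coding, and neither was listed in any library. Beyond LOC110259218, IGF2 on the same strand as the chain (chr2:1469183-1496417) was listed in all 12 libraries, at 14.4 to 46.6 FPKM. The chain spans 2273 spliced bases with 66.5% GC, a longest frame of 198 residues and an AATAAA near its end. Its level was 231, 202, 131, 187, 308 and 275 FPKM in H1 to H6 (222 ± 63.7, SD, n = 6) and 167, 81.3, 60.9, 353, 205 and 183 in L1 to L6 (175 ± 105, n = 6). The 2 lowest and the highest values were all in L, and the groups overlapped (log2 fold change 0.52 ± 0.39, SE, limma adjusted p = 0.893). This chain alone made up 54.5% of the summed level of all spliced intergenic transcripts. In H2 a second chain with 6 exons was assembled at the same locus at 194 FPKM, and no other library held it.

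The chromosome 1 chain of 6 exons (chr1:54630546-54633643, minus strand) lies 32137 bases from SYNCRIP, an RNA-binding protein gene that was itself at 12.4 to 29.5 FPKM. Its exons have 35.7% GC and a longest frame of 45 residues. The level was 9.8, 9.38, 12.1, 11.3, 11.3 and 10.3 FPKM in H1 to H6 (10.7 ± 1.04, SD, n = 6) and 15.2, 9.33, 19.1, 13.2, 9.56 and 17.2 in L1 to L6 (13.9 ± 3.99, n = 6). The 4 highest values were in L, but the 2 other L libraries lay among the lowest of all (log2 fold change -0.32 ± 0.20, limma adjusted p = 0.893). The chain without the 64-base exon was found in 10 libraries, at 1.74 to 2.63 FPKM in all 6 of H. In L it was listed at 0 in L1 and L3 and at 1.53, 2.7, 2.09 and 2.64 in L2, L4, L5 and L6. Summed over both chains, the locus was at 12.9 ± 1.18 in H and 15.4 ± 3.7 in L (limma adjusted p = 0.801).

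The 3 chains with 2 exons that all 12 libraries held were at lower levels. The chromosome 13 chain (chr13:207670858-207676743, minus strand) lies 33848 bases from LOC110256558 and 70171 bases from ADARB1, an RNA-editing deaminase gene, and was at 3.72 to 6.23 FPKM in H and 2.09 to 5.31 in L. The chromosome 15 chain (chr15:81978285-81981357, plus strand) lies between the homeobox genes HOXD3 and HOXD1, 3391 and 6260 bases away, on the same strand as both. It was at 1.19 to 6.13 in H and 0.993 to 4.85 in L, while HOXD3 was listed in 8 libraries at up to 1.17 FPKM and HOXD1 in 11 at up to 14.1. The chromosome 5 chain (chr5:65160928-65171974, plus strand) lies 38282 bases from NTF3, a neurotrophin gene, and was at 0.678 to 1.76 in H and 0.733 to 1.35 in L. In each of the 3 the ranges of H and L overlapped (log2 fold changes 0.19 ± 0.24, 0.16 ± 0.39 and -0.02 ± 0.23, SE, limma adjusted p of 0.92 or more).

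**Figure D2:**
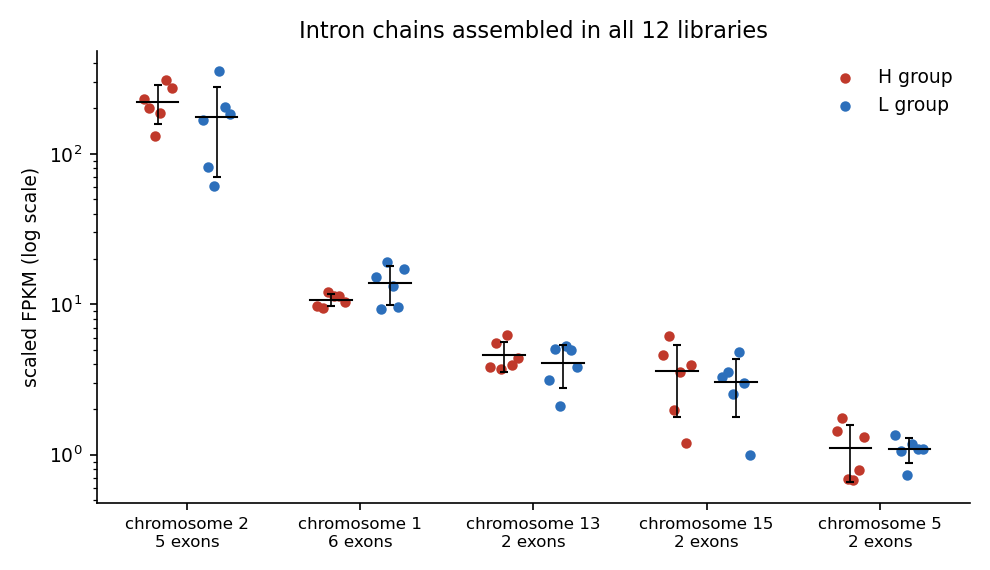
Scaled FPKM on a log axis for the 5 spliced intergenic chains assembled in all 12 libraries, with 1 point per pig of the H group (red) and the L group (blue), and lines and bars for the group mean ± SD of 6 pigs. The chromosome 2 chain sat at 60.9 to 353 and the chromosome 5 chain at 0.678 to 1.76, and H and L overlapped in all 5.

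Some members reached high levels without being found in every library. In all, 10 chains had a transcript of 10 FPKM or more as deposited, and 8 of these were not in all 12 libraries. This level was chosen after the values were seen. A 2-exon chain between LOC106507477 and LOC102166614 (chr1:30776225-30781041, plus strand) was at 23, 15.7, 32.9, 13.7 and 23.4 FPKM in H1, H2, H4, H5 and H6 and at 13.2, 25.9, 43.4 and 8.86 in L1 to L4. It was listed at 0 in H3, L5 and L6, where overlapping transcripts reached 19.4. A 2-exon chain of 6638 bases between EMC10 and JOSD2 (chr6:55325521-55332290, minus strand) was at 36.2 and 13.9 in H3 and H5, at 39, 69.9 and 53.1 in L2, L4 and L5, and at 0 in the other libraries, although 11 libraries held its intron.

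For 3 further chains every intron was held by all 12 libraries although the chain was not. A 2-exon chain beside PKIA on chromosome 4 (chr4:57906752-57977599, minus strand) was listed in 4 libraries at 3.92 (H1), 27.5 (L1), 36.2 (L3) and 27.2 (L6) FPKM, and no other library held it. A 7-exon chain between UBTD1 and HOGA1 (chr14:108948852-108956363, plus strand) was listed in H2 alone, at 39.4. In the other libraries overlapping transcripts reached 630 FPKM. A 29-exon chain on chromosome 12 next to TIAF1 was likewise in H2 alone at 15 FPKM. Over the 37 chains found in 6 to 11 libraries there were 144 cases of a chain missing from a library. In 92 of these (63.9%) another spliced transcript covered its exons, in 29 (20.1%) a single-exon transcript did, and in 23 (16%) nothing was assembled there.

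A translated search found protein likeness in a minority of members. Against the 19615 annotated pig proteins, 37 chains (4.81%) at 12 loci aligned with at least 50% identity over at least 100 residues. These proteins were translated from the same RefSeq annotation, so a coding gene that it lacks can align only through a similar annotated protein. The 4.81% is therefore not the share of members that code for protein. No chain of the chromosome 12 locus with the frame of 1753 residues was among the 37. The longest alignment among recurrent members was that of an 8-exon chain on chromosome 6 between the zinc finger genes ZNF470 and ZNF835 (chr6:60906863-60927119, minus strand), with 51.4% identity to ZNF470 over 741 residues and a frame of 867 residues. A 9-exon chain of the same locus has 1 more intron, a frame of 305 residues and 80.4% identity to ZNF471 over 423. The 9-exon chain was listed in 10 libraries at up to 4.86 FPKM (L2) and the 8-exon chain in 8 at up to 3.2 (L3). Together with its other chains the locus was in all 12 libraries, with a log2 fold change of -0.10 ± 0.13 (SE, limma adjusted p = 0.882).

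A 2-exon chain on chromosome 14, far from any RefSeq gene (chr14:119668540-119670291, plus strand), aligned with 94.7% identity to all 524 residues of LOC110256649, an annotated protein-coding gene elsewhere on that chromosome. Reads of such near-identical copies can be shared, so its level of 0.805 to 2.06 FPKM in the 10 libraries that hold it is uncertain. The gap counted as the intron of this chain is only 4 bases long and lacks standard ends. The chain is a member by the rule and was tested with limma, but it is not shown to be spliced. The gap is in capitals between 28 bases on each side (chr14:119668743-119668802).
chromosome 14 gap: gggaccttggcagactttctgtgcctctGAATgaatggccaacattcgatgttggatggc
A chain on chromosome 5 (chr5:77785497-77795181, plus strand) aligned with 67.9% identity over 268 residues to LOC100626390 and was in 8 libraries at up to 0.773 FPKM. The other aligned loci were found in at most 5 libraries per chain, among them chains like ST5 between AMPD1 and BCAS2, like PRC1 near TLR5 and like ANKRD1 between UBTD1 and HOGA1, the last at 52.5% over 202 residues.

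The longest recurrent member was a 3-exon chain of 18580 bases on chromosome 9, in 7 libraries at 0.338 to 5.84 FPKM, 116429 bases from NAMPT. Likeness between members of different loci was rare, with 5 pairs of loci alike at 80% or more over 200 bases.

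The number of spliced intergenic transcripts followed the depth of the library. Depth was read from the files as the median of coverage over FPKM, which ranged from 7.5 (H5) to 11.5 (H4). Across the 12 libraries Pearson's r was 0.763 (permutation p = 0.00391) and Spearman's rho 0.858 (permutation p = 0.00074, 0.00391 and 0.00148 after adjustment over the 2). Without H5 and H4, the libraries farthest from the median depth, r was 0.813. Within L r was 0.919 (exact p = 0.0125), and within H it was 0.667 (exact p = 0.131) and did not pass the threshold. For chains found in at least 2 libraries r was 0.585 (permutation p = 0.0476).

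**Figure D3:**
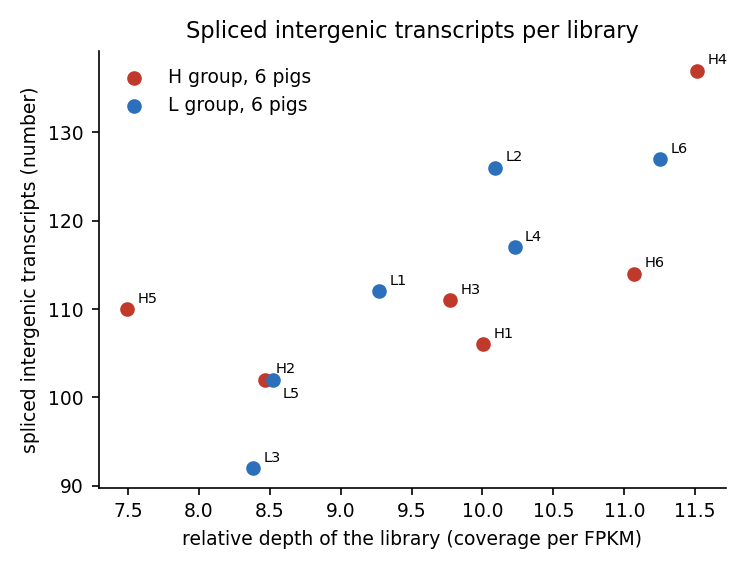
Number of spliced intergenic transcripts per library (vertical axis, not from 0) against the relative depth of the library (coverage per FPKM), with 1 labelled point per pig of H (red) and L (blue). The deepest library, H4, had the most (137) and L3 the fewest (92).

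Whether pigs with high and low breeding values for intramuscular fat differ in these transcripts was asked first at the level of the library. H libraries held 113 ± 12.3 spliced intergenic transcripts and L libraries 113 ± 13.7 (SD, n = 6 each, exact two-sided permutation p = 0.957). Their share of all spliced transcripts was 0.524 ± 0.0428% and 0.541 ± 0.0599% (exact p = 0.563). The summed level was 393 ± 128 FPKM in H and 319 ± 112 in L (exact p = 0.316). Median length (1466 and 1483 bases), median level (0.473 and 0.447 FPKM) and the number of chains in 1 library only (47.7 and 43.8) differed by less than 1 SD of either group. None of the 10 measures compared passed the threshold, and all adjusted p were 0.881 or more. With transcripts over 10000 bases from every gene alone, the share differed by -0.0346 percentage points (exact permutation p = 0.0281, not adjusted). Without the most abundant chain the difference in summed level was 26.3 FPKM in place of 73.5. That sum still holds the 6-exon chain of the same locus, listed in H2 alone at 194 FPKM. The relative depth, the adipocyte sum and the erythroid sum given above varied among the same libraries.

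Each chain found in 6 or more libraries was then compared between H and L with limma on log2 of scaled FPKM plus 0.5, in a fit over all 12707 such chains. Of the 42 members tested, 0 were called at an adjusted p under 0.1, while 5 of all chains tested were (0.0393%). At an unadjusted p under 0.05 there were 2 members (background 5.16%), 1 higher in H (background 2.52%) and 1 lower (2.64%). Log2 fold changes ran from -0.80 to 1.10 with 21 above 0 (background 48.4%) and 21 below, a median of -0.00 (all chains -0.01), and a median standard error of 0.39. In the fit over 11812 loci, 0 of 38 loci made of member chains alone were called (background 0.00847%). Of these 38, 3 had an unadjusted p under 0.05 (background 7.04%), 2 of them higher in H (background 4.76%) and 1 lower (2.29%). Of the 38 loci, 20 had a log2 fold change above 0 (background 54.9%). With an unadjusted p under 0.05 with a log2 fold change of at least 1.2 in size, there were 0 chains (background 2.53%) and 1 locus (background 0.356%).

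**Figure D4:**
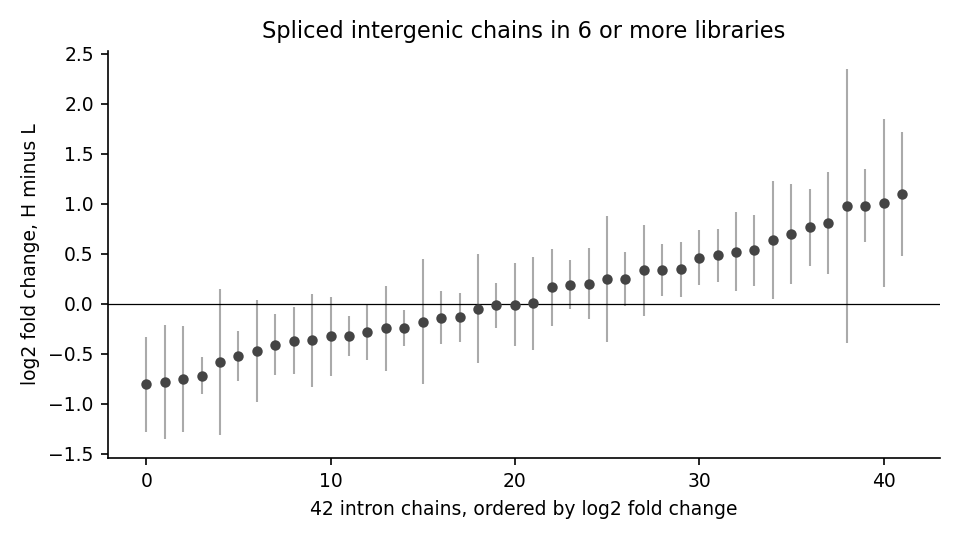
Log2 fold change (H minus L) with its standard error from limma for the 42 spliced intergenic chains found in 6 or more libraries, in order of size. Values run from -0.80 to 1.10, 21 lie above 0 and 21 below, and none passed an adjusted p of 0.1.

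The locus with the smallest p lies on the plus strand of chromosome 6 between VPS13D, a lipid transfer protein gene, and DHRS3, a retinal reductase gene (chr6:72544009-72556278). Its 3 chains share 1 donor, shown here with the acceptor of the 2-exon chain and the intron's first and last 2 bases in capitals.
chromosome 6 donor: cagcttccttctcataagggGTgaggacgt
chromosome 6 acceptor: tcattcaaatccctttttAGcaactataaa
These windows are chr6:72544179-72544208 and chr6:72544496-72544525. The locus was at 0.803, 0.948, 0.409, 1.95, 0.757 and 0.782 FPKM in H1 to H6. In L it was at 0.381 and 0.321 in L1 and L2 and listed at 0 in the other 4. The 2 groups did not overlap, though H3 and L1 differed by only 0.409 against 0.381 (log2 fold change 1.2 ± 0.24, SE, limma adjusted p = 0.364, exact two-sided permutation p = 0.00216, the smallest these groups allow). Members given an exact p here and below were picked by their small limma p on the same values, and the exact p is not adjusted for that choice. This locus was the only one of 38 member loci whose groups did not overlap, against 58 of all loci tested (0.491%), while 0 of the 42 member chains had groups that did not overlap (background 0.315%). In H3 and H4 a transcript of this locus ran on to meet the 3′ end of DHRS3, which lies on the other strand, so that these 2 transcripts were not themselves intergenic by the rule. Their levels are counted in the locus values above, and whether the groups stay apart without them was not tested. DHRS3 was at 17.2 ± 4.72 FPKM in H and 14.6 ± 10.6 in L.

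A 2-exon chain of the plus strand of chromosome 2 (chr2:74600157-74615138) lies 11887 bases from CREB3L3, a liver and gut transcription factor gene that was not listed, and 11600 bases from MAP2K2, a kinase of the ERK pathway at 32.2 to 99.7 FPKM. The same kind of windows show its intron (chr2:74600240-74600269 and chr2:74613614-74613643).
chromosome 2 second donor: ttttctacactttccttcagGTcagttttt
chromosome 2 second acceptor: tactatctgttcctttacAGaaaacagtgc
It was listed in 1 H library, at 0.165 FPKM in H3, and in 5 L libraries, at 0.378, 0.495, 0.5, 0.604 and 0.361 in L1, L3, L4, L5 and L6. Thus 5 of 6 L values lay above every H value and L2 was listed at 0 (log2 fold change -0.72 ± 0.19, SE, limma adjusted p = 0.604, exact permutation p = 0.0152). Without L2 this chain alone of the members was called (log2 fold change -0.88, limma adjusted p = 0.0739). Counted by locus, H3 held a second transcript and stood at 0.395, within the L range (log2 fold change -0.65 ± 0.22, adjusted p = 0.642). In 5 of the 6 libraries without the chain nothing was assembled on its exons.

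A minus-strand chain of chromosome X (chrX:29679062-29788199) has an intron of 108238 bases and lies 28333 bases from DMD, the dystrophin gene, on the same strand and upstream of it. Its exons are 81.1% repeats and 34% GC, and its splice sites are again standard (chrX:29787785-29787814 and chrX:29679547-29679576).
chromosome X donor: ggtgaagagcagaaaacataGTgagtaaaa
chromosome X acceptor: gtaatctgttatatcaacAGgctaaagaag
In H1 to H6 it stood at 2.63, 1.42, 1.35, 0.965, 1.05 and 1.46 FPKM, and at 0.679, 1.38, 0, 1.02, 0 and 0.493 in L1 to L6. The H values were mostly higher, and L2 and L4 lay within the H range (log2 fold change 0.98 ± 0.37, SE, limma adjusted p = 0.87, exact permutation p = 0.0216). DMD itself was at 18.3 ± 5.77 FPKM in H and 15.3 ± 5.89 in L. Levels that rest on repeats are uncertain, since reads of repeats can map to several places.

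**Figure D5:**
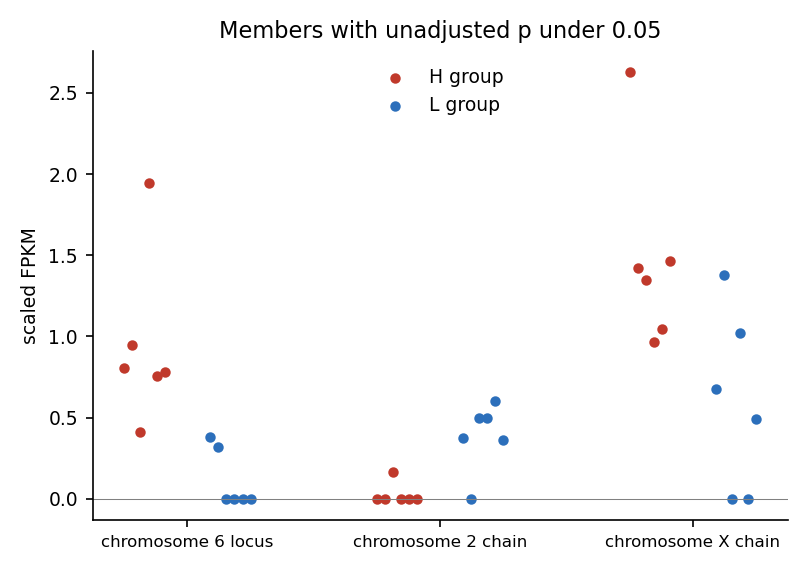
Scaled FPKM per pig (H red, L blue, 6 points each) for the chromosome 6 locus, the chromosome 2 chain beside CREB3L3 and the chromosome X chain beside DMD, the 3 with an unadjusted limma p under 0.05. Points at 0 are libraries in which no such transcript was assembled, and 5 of the 6 H points of the chromosome 2 chain and 4 of the 6 L points of the chromosome 6 locus are at 0.

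Of the other chains among the 10 with the smallest p, 0 reached an unadjusted p under 0.05. A 2-exon chain on chromosome 6 between CNTNAP4 and LOC106510474, 107805 bases from the latter, was in 1 H and 5 L libraries, and one beside AKIRIN2 on chromosome 1 in 4 H and 2 L libraries (exact permutation p = 0.0801 and 0.119). A chain between MARCKSL1 and FAM229A was in 5 H and 2 L libraries, while its locus was in 8 libraries and highest in L3, at 0.886 FPKM. A chain beside CAB39, a kinase scaffold gene, was at 1.76 to 6.01 FPKM in the 6 H libraries and at 5.97, 1.4, 0, 2.9, 1.94 and 0 in L1 to L6, which gave the highest log2 fold change (1.10 ± 0.62). A chain between PPM1B and LRPPRC was in 3 H libraries at up to 1.35 and in 5 L libraries at up to 1.85, which gave the lowest (-0.80 ± 0.47). The 2 chains beside SYNCRIP, described above, were also among them. The limma adjusted p was 0.893 for each of these chains.

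Among loci, the next smallest p after these 3 belonged to a minus-strand locus beside CRYBA1 on chromosome 12 (chr12:45418125-45430052). In H1 to H6 it stood at 0.917, 1.19, 0.999, 0.775, 1.26 and 1.14 FPKM, and at 0.75, 0.789, 0, 0.909, 1.05 and 0.792 in L1 to L6, so that the groups overlapped (limma adjusted p = 0.774, exact permutation p = 0.0476). The locus between METTL21A and CCNYL1, whose end is shown above, was at 1.46 to 3.54 in H and listed from 0 to 5.53 in L. Of the member chains and loci, 0 were in all 6 libraries of one group and in none of the other (background 0.0315% of chains and 0.0169% of loci). Of the 221 chains in 2 or more libraries, 22 were in H alone and 33 in L alone, together 24.9% against 20.4% of other chains. Of the 83 chains in 4 or more libraries, 2 were in a single group (2.41%, against 1.46% of other chains). They were 1 chain beside TMEM173 in 4 H libraries at 0.297 to 0.686 FPKM and 1 beside SELENOT in 4 L libraries at 0.257 to 0.397. The locus of the TMEM173 chain was in 10 libraries, among them L1, L2, L4 and L6 at 0.361, 0.483, 0.595 and 0.983 FPKM.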

How the data were processed

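RNA from longissimus dorsi of 12 pigs was sequenced as paired-end reads. Per the labels and the study's methods, the authors trimmed reads with Trim Galore, aligned them to Sscrofa11.1 with TopHat2 2.1.0 guided by Ensembl junctions and assembled transcripts in each library with Cufflinks 2.2.1. The deposited files hold exons, FPKM (a level per transcript length and mapped fragments) and coverage, and no counts, so precision by counting is unknown.

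Spliced transcripts were placed against the 28224 RefSeq genes of the 20 chromosomes (the Ensembl annotation was not used here, and members may be genes of it). FPKM was divided by the median ratio over the 3760 intron chains found in all 12 libraries, and a chain that was not assembled was set to 0. Chains and loci found in at least 6 libraries were compared with limma 3.58.1 (R 4.3.3, variance trend) on log2(FPKM + 0.5), a scale that understates changes of low transcripts, with Benjamini-Hochberg adjustment over all tested and a threshold of 0.1, where the authors had used Cuffdiff, which needs alignments. Other tests were permutations over libraries with a threshold of 0.05, exact for group differences and within groups and with 100000 resamples for correlations over 10 or more libraries. Scripts were tested on simulated data. Proteins were searched with BLAST 2.17.0. Sequences are from the RefSeq copy of Sscrofa11.1. Members were named when called by limma, when among the 10 chains or 10 loci with the smallest p, when in all 12 libraries, for the most exons or greatest length in 6 or more libraries, and for the longest protein alignments, and 1 member so named is not reported here. The members and lists were chosen with earlier results of these data known. Pigs are separate animals, and the shared individual numbers were tested as pairs only as an alternative.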

Additional observations from a re-analysis of the deposited data

Results flagged for a closer look

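In groups of 6 libraries, single values that stood apart from the other 5 were sought by Dixon's ratio in 44 groups of values, of which chance alone picks about 5%. Library H4 held the most spliced intergenic transcripts (137, next 114 in H), the highest share of spliced transcripts that were intergenic (0.605%, next 0.526%) and the most found in 1 library only (64, next 47). H4 was also the deepest library. Its value at the chromosome 6 locus beside DHRS3 was the highest of H (1.95 FPKM, next 0.948). H1 was the highest of H for the chromosome X chain and locus beside DMD (2.63 FPKM, next 1.46). L2 was the highest of L for the 9-exon chain of chromosome 6 beside ZNF470 (4.86 FPKM, next 2.11).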

How the results depend on the processing

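Of 284 recomputed comparisons, 268 kept their direction and side of the threshold, and of 681 for named members 665 did. The difference in number between H and L (0.667 transcripts) turned to -3.83 and -4.83 with distances over 5000 and 10000 bases, -3.17 for chains in at least 2 libraries, -1.5 for 3 or more exons and -8.2 without H4 and L3 (chosen after seeing the data), and ran from -4.07 to 3.53 with each library left out. The share (-0.0175 points) turned to 0.00568 with at least 0.5 FPKM and 0.0319 counted by loci (added after seeing the data), passed the threshold with distances over 10000 bases (-0.0346, exact p = 0.0281), was -0.0497 without H4 and L3 (exact p = 0.0873) and ran from -0.0337 (without H4) to -0.00467 (without L6) with each library left out. Against annotated long non-coding chains the length difference was 82.8 bases. Against other chains without annotated introns the differences in exon count (0) and recurrence (-0.0833) did not pass, nor did the depth relation within H (r = 0.667). The causes were not tested.

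Chains called by limma were 0 under every alternative except without L replicate 2, where the chromosome 2 chain beside CREB3L3 was called, so that the range with each library left out was 0 to 1 (log2 fold change -0.88). For loci all alternatives gave 0. Fold changes near 0 changed sign: the chromosome 13 chain (-0.045 without H4 and L3), the chromosome 14 chain (-0.016 unscaled, -0.0056 with array weights, -0.0071 with a pseudocount of 0.1, -0.31 to 0.32 with a library left out), the chromosome 15 chain (-0.065 to 0.39) and the chromosome 5 chain (-0.12 to 0.065). The summed level kept H above L in all alternatives, from 25.8 to 115 FPKM. The chromosome 2 locus of the most abundant chain was by itself at 255 ± 93.5 FPKM in H and 175 ± 105 in L (SD). The sum without this whole locus was not computed, so the direction is not shown for the other members. By the labels, individual numbers follow falling breeding value within each group, and no label gives them as pairs. Pigs of the same number were not alike (correlations of deviations -0.03 to 0.02 for chains and -0.13 to 0.15 for loci). With the numbers as a replicate block, number, share and sum kept their differences of 0.667, -0.0175 and 73.5 (exact p = 0.938, 0.656 and 0.469), no member was called, and over all features tested the calls went from 5 to 0 chains and from 1 to 0 loci.

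Members had a median coverage of 4.23 reads over a base, and a chain listed at 0 is not shown to be absent. Alignment was guided by Ensembl introns, whose part in recurrence was not tested.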
